A study of Mus musculus with 29 samples.

Results

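The immunity-related GTPases are a family of interferon-inducible proteins of mouse cells, and Iigp1, Irgm1, Irgm2, Igtp, Tgtp1 and Gm12250 were looked up on the arrays. A probe set, a group of short DNA probes that yields 1 expression value, was taken for a gene where it is annotated with that gene symbol alone. By this rule 3 of the 6 genes were found, Iigp1, Irgm1 and Gm12250, each with 1 probe set, among 19938 genes with such a probe set. Irgm2 and Igtp are both named for 1 probe set, and Tgtp1 shares 2 probe sets, called A and B here, with its near-identical copy Tgtp2. Which gene of a pair these 3 shared probe sets measure cannot be told apart, so they are given as shared and kept out of the counts of the 3 genes.

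The colon of female C57BL6J mice, which were 6 weeks old when the study began, was measured on Affymetrix Mouse Gene 1.0 ST arrays, with 1 array per mouse. Dextran sodium sulphate (DSS), a polymer that injures the colonic epithelium when it is drunk, was given for 7 days in acute colitis (4 mice), and 1 cycle (5 mice) adds 2 weeks without DSS. The groups of 2 cycles (5 mice) and 3 cycles (5 mice) repeat this. The water held more DSS in the later cycles than in the first, so the number of cycles and this concentration cannot be told apart. The recovery group (5 mice) had 3 additional weeks without DSS after 2 cycles, and control mice (5 mice) had DSS-free water. All mice were age-matched when they were killed. The segment of colon frozen for RNA was chosen as the one with the heaviest infiltrate, so the tissue of the DSS groups was picked for its inflammation. Values are log2 expression values, so that 1 unit is a factor of 2.

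Immunity-related GTPases are best known for defence inside the cell. The effector members, among them Iigp1 (also called Irga6), Tgtp1 (Irgb6) and Gm12250 (Irgb10), gather on the vacuoles that enclose parasites and bacteria such as Toxoplasma and Chlamydia and help to break them. The regulatory members Irgm1, Irgm2 and Igtp (Irgm3) sit on the membranes of the cell itself, keep the effectors inactive there and take part in autophagy, and their human relative IRGM lies in a region associated with Crohn's disease. Interferon gamma induces the family, and interferons act on promoters through elements such as the gamma-activated site (GAS) and the interferon-stimulated response element (ISRE).

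Matches to one or both elements lie near the starts of the 6 genes shown next, and these stretches are given as a description. They are taken from RefSeq promoters of 250 bases before to 50 bases after the gene start, on build GRCm38.p6, in which 5 of the 6 listed genes were looked at. Each is written 5′ to 3′ on the strand of its gene. Capitals mark GAS, searched as TTCNNNGAA, and the ISRE core, searched as GAAA, any 2 bases and GAAA again, both on either strand.
Irgm1 (chr11:48871420-48871465, minus strand): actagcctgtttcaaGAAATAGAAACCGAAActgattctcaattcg
Gm12250 (chr11:58183737-58183821, plus strand): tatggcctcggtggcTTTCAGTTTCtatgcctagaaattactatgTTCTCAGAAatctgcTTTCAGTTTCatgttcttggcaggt
Igtp (chr11:58199496-58199546, plus strand): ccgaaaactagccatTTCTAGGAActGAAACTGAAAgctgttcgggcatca
Irgm2 (chr11:58214887-58214937, plus strand): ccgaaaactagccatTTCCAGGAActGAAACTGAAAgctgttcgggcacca
Tgtp1 (chr11:48992299-48992349, minus strand): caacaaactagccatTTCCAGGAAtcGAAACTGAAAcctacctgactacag
Tgtp2 (chr11:49064258-49064308, minus strand): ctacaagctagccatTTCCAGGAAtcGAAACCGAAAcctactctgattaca

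Igtp, Irgm2, Tgtp1 and Tgtp2 hold 1 GAS followed after 2 bases by 1 ISRE core, and the GAS begins between 45 bases before the start in Igtp and 88 bases before it in Tgtp1. Gm12250 holds 1 GAS and 2 ISRE cores that read on the opposite strand. Irgm1 holds 2 ISRE cores that overlap each other, 30 to 15 bases before its start, and these letters of GAS were not found in its window. Of 32851 RefSeq promoters of this length, 8.3% hold a GAS, 3.44% an ISRE core and 0.454% both. The spaced pair of GAS, any 2 bases and an ISRE core on the same strand, which was searched after the sequences had been seen, is in 5 promoters (0.0152%), those of Gm12185, Igtp, Irgm2, Tgtp1 and Tgtp2. Ifi47, another family member and the gene after Tgtp2, was searched in the same way and holds neither. In the RefSeq gene order on chromosome 11, Gm12250, Igtp and Irgm2 follow each other directly, and Tgtp1 and Tgtp2 have 1 gene between them. A match of letters is a description and does not show that a factor binds there.

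Colon epithelium was present on every array: 8 markers of simple epithelium such as Epcam and Krt8 averaged log2 11.15 to 11.51. Array medians lay between 6.02 and 6.14. The 12101 probe sets without a gene symbol were searched for the widest gap in values with at least 5 arrays on each side. The 1 probe set found split the arrays into a low set of 14 (at most 8.14) and a high set of 15 (at least 11.09). The split was thus taken from these same data. All control and 1 cycle mice, acute mice B2 and B3 and 2 cycles mice D4 and D5 were in the low set, and the other mice, with all of 3 cycles and recovery, were in the high set. For 3 cycles and recovery against control this split and the group cannot be told apart. Nothing in the labels names the split as a batch.

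In acute colitis all 3 genes rose against control: Iigp1 14.3-fold, Gm12250 9.32-fold and Irgm1 3.69-fold. All groups were fitted together with limma, with the Benjamini-Hochberg adjustment taken across the 35511 probe sets. A probe set was called where its adjusted p was under 0.05 and its fold above 2. In this comparison 1.38% of all probe sets were called higher, against 3 of the 3 genes and 3 of the 3 shared probe sets. Every acute mouse lay above every control mouse in these 6 probe sets, as in 8.86% of all probe sets. As the tissue was measured in bulk, a change in the number of cells of a type and a change in RNA per cell cannot be told apart in any value given here.

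Iigp1, an effector that oligomerizes on the vacuole membrane, had log2 values of 7.76, 10.41, 9.15 and 8.73 in acute mice B2, B3, B4 and C3, against 5.28, 5.25, 5.31, 5.0 and 5.04 in control mice A1, A2, A5, L1 and L2. The highest control mouse lay 1.25-fold above the lowest, whereas among the acute mice, given the same treatment, B3 lay 6.27-fold above B2. Acute mice averaged 9.01 ± 1.1 (SD, n = 4) and control mice 5.17 ± 0.15 (SD, n = 5). The log2 change was 3.84 (SE 0.46, 95% interval 2.89 to 4.78, adjusted p 1.31e-06).

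Gm12250, an effector studied for its attack on bacteria in the cytosol, read 7.03, 9.64, 8.58 and 7.98 in acute mice B2, B3, B4 and C3, against 4.93, 5.28, 5.0, 4.84 and 5.40 in control mice A1, A2, A5, L1 and L2. B3 was again highest and B2 lowest. Acute mice averaged 8.31 ± 1.09 (SD, n = 4) and control mice 5.09 ± 0.24 (SD, n = 5). The log2 change was 3.22 (SE 0.40, 95% interval 2.40 to 4.04, adjusted p 1.88e-06).

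Irgm1, the regulator that protects the membranes of the cell from the effectors, read 8.83, 10.34, 9.42 and 9.29 in acute mice B2, B3, B4 and C3, against 7.52, 7.50, 7.63, 7.65 and 7.63 in control mice A1, A2, A5, L1 and L2. The order of the acute mice was that of Iigp1 and Gm12250. Acute mice averaged 9.47 ± 0.63 (SD, n = 4) and control mice 7.59 ± 0.07 (SD, n = 5). The log2 change was 1.88 (SE 0.27, 95% interval 1.32 to 2.44, adjusted p 1.24e-05), with an interval below that of Iigp1. Whether the genes differ in their change was not tested.

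The shared probe sets rose as well. The probe set of Igtp and Irgm2, both regulators, read 8.29, 10.48, 9.41 and 8.99 in acute mice B2, B3, B4 and C3, against 6.69 to 7.07 in control (median 6.78), a log2 change of 2.44 (SE 0.35, adjusted p 1.29e-05). Probe set A of the effectors Tgtp1 and Tgtp2 read 8.70, 11.68, 10.57 and 9.71 in the same acute mice, against 6.43 to 6.61 in control (median 6.50), a log2 change of 3.65 (SE 0.46, adjusted p 2.46e-06). Probe set B of the pair changed by 3.41 (SE 0.43, adjusted p 2.25e-06). B3 was highest and B2 lowest of the acute mice in all 6 probe sets.

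**Figure D1:**
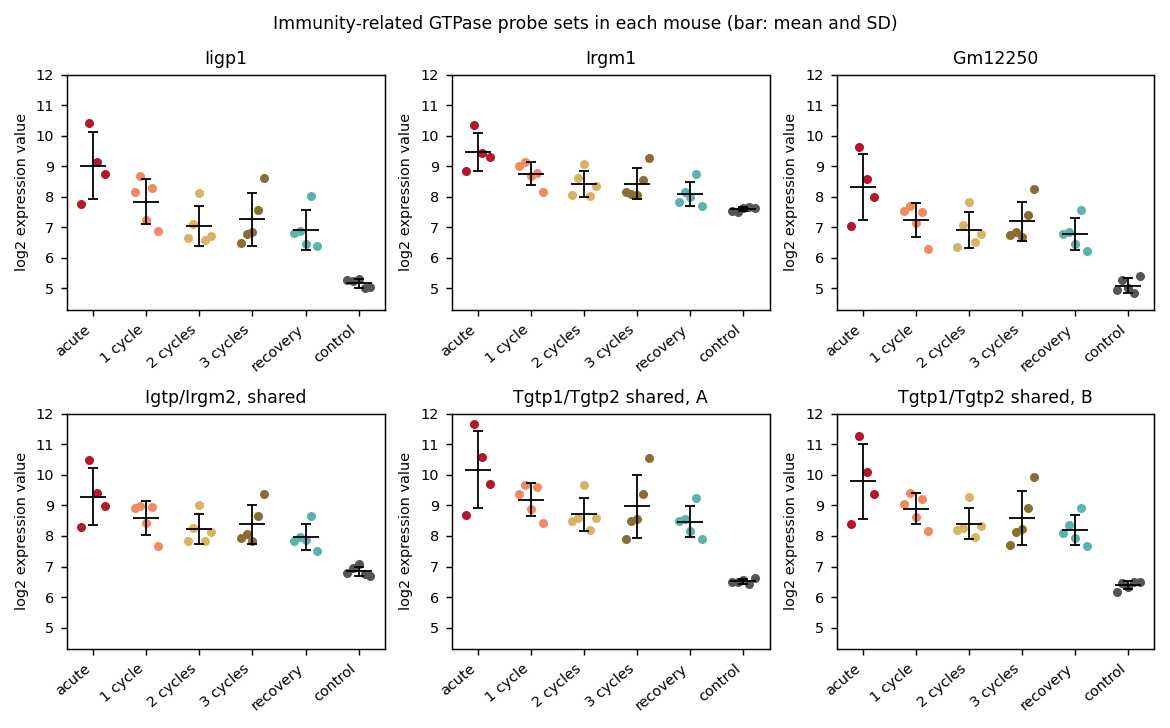
Log2 expression value (vertical axis) of each mouse (points) by group (horizontal axis) for Iigp1, Irgm1, Gm12250 and the 3 shared probe sets; bars give the mean and SD of the group. The control mice lie close together and below every acute mouse, and 1 mouse stands highest in each DSS group.

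After 2 weeks without DSS the genes were still raised. After 1 cycle, Iigp1 was 6.36-fold, Gm12250 4.42-fold and Irgm1 2.24-fold above control, and 3 of the 3 genes were called, against 0.87% of all probe sets called higher. Iigp1 read 8.15, 8.68, 7.23, 8.27 and 6.89 in 1 cycle mice J1, J5, K1, K2 and K3, against 5.0 to 5.31 in control. The log2 change of Iigp1 was 2.67 (SE 0.44, adjusted p 0.000447). Every 1 cycle mouse lay above every control mouse, as in 4.89% of all probe sets.

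Gm12250 had 7.54, 7.69, 7.13, 7.49 and 6.30 in 1 cycle mice J1, J5, K1, K2 and K3, against 4.84 to 5.40 in control, a log2 change of 2.14 (SE 0.38, adjusted p 0.0009). Irgm1 had 8.99, 9.14, 8.69, 8.79 and 8.16 in the same 1 cycle mice, against 7.50 to 7.65 in control, a log2 change of 1.16 (SE 0.26, adjusted p 0.00567). J5 was highest and K3 lowest in all 6 probe sets. The shared probe sets changed by 1.73 (Igtp and Irgm2), 2.67 (Tgtp1 and Tgtp2, A) and 2.5 (B), and each was called.

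After 2 cycles Iigp1 and Gm12250 stayed above control, while Irgm1 did not reach the threshold. Iigp1 read 6.66, 7.12, 8.11, 6.59 and 6.70 in 2 cycles mice D4, D5, E2, E3 and E4, all above the control range of 5.0 to 5.31, and was 3.64-fold higher (log2 change 1.86, SE 0.44, adjusted p 0.00943). Gm12250 read 6.36, 7.08, 7.82, 6.51 and 6.77 in the same 2 cycles mice, against 4.84 to 5.40 in control, 3.53-fold higher (log2 change 1.82, SE 0.38, adjusted p 0.00361). Thus 2 of the 3 genes were called, against 0.907% of all probe sets called higher.

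Irgm1 read 8.04, 8.62, 9.06, 8.03 and 8.36 in 2 cycles mice D4, D5, E2, E3 and E4, against 7.50 to 7.65 in control. Every 2 cycles mouse lay above every control mouse, as in 4.7% of all probe sets, but the log2 change of 0.84 (SE 0.26, 95% interval 0.31 to 1.36) had an adjusted p of 0.054. E2 was highest of the 5 mice in all 6 probe sets. The shared probe sets were called, with log2 changes of 1.37 (Igtp and Irgm2, not called without E2, adjusted p 0.0575), 2.20 (Tgtp1 and Tgtp2, A) and 2.01 (B). With the 2 sets of arrays as a covariate 1 of the 3 genes was called in this comparison, and within the low set, where 2 cycles has 2 mice, 0 were called, with log2 changes of 1.72 for Iigp1 and 1.63 for Gm12250. With the covariate the probe set of Igtp and Irgm2 was not called (1.33, adjusted p 0.102), and within the low set 0 of the 3 shared probe sets were called.

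After 3 cycles the pattern was similar. Iigp1 read 6.47, 6.77, 6.85, 7.57 and 8.62 in 3 cycles mice F1, F3, F5, G2 and G3, against 5.0 to 5.31 in control, 4.23-fold higher (log2 change 2.08, SE 0.44, adjusted p 0.002). Gm12250 read 6.74, 6.85, 6.69, 7.41 and 8.24 in the same 3 cycles mice, against 4.84 to 5.40 in control, 4.29-fold higher (log2 change 2.1, SE 0.38, adjusted p 0.000571). G3 stood highest in all 6 probe sets.

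Irgm1 read 8.14, 8.10, 8.07, 8.53 and 9.28 in 3 cycles mice F1, F3, F5, G2 and G3, against 7.50 to 7.65 in control. Its change passed the adjusted p of 0.0244 but, at 1.79-fold, not the threshold of 2-fold, and without G3 the adjusted p was 0.0983. Thus 2 of the 3 genes were called, against 1.02% of all probe sets called higher. The shared probe sets were called, with log2 changes of 1.53 (Igtp and Irgm2), 2.46 (Tgtp1 and Tgtp2, A) and 2.20 (B). With the sets of arrays as a covariate 0 of the 3 genes and 0 of the shared probe sets were called, with log2 changes of 2.01 for Iigp1 (adjusted p 0.143) and 1.95 for Gm12250 (adjusted p 0.0973). The SE of Iigp1 rose from 0.44 to 0.65 in that fit. As all 3 cycles mice are in 1 set and all control mice in the other, it cannot separate the split from the group.

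After the additional recovery Iigp1 and Gm12250 were still above control. Iigp1 read 6.81, 6.88, 6.45, 8.03 and 6.40 in recovery mice M1, M3, M5, N2 and N3, against 5.0 to 5.31 in control, 3.33-fold higher (log2 change 1.74, SE 0.44, adjusted p 0.0104). Gm12250 read 6.79, 6.84, 6.45, 7.58 and 6.22 in the same recovery mice, against 4.84 to 5.40 in control, 3.22-fold higher (log2 change 1.69, SE 0.38, adjusted p 0.00462). Every recovery mouse lay above every control mouse in both genes, as in 6.44% of all probe sets.

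Irgm1 read 7.81, 8.16, 8.0, 8.74 and 7.71 in recovery mice M1, M3, M5, N2 and N3, against 7.50 to 7.65 in control. The lowest recovery mouse, N3, lay just above the highest control mouse, and the log2 change of 0.50 (SE 0.26, 95% interval -0.03 to 1.03) had an adjusted p of 0.212. Thus 2 of the 3 genes were called, against 1.08% of all probe sets called higher. The shared probe sets were called, with log2 changes of 1.11 (Igtp and Irgm2), 1.96 (Tgtp1 and Tgtp2, A) and 1.81 (B). The call of Igtp and Irgm2 was lost without M1, M3, N2, A1, L1 or L2, with 0.94 (adjusted p 0.0839) without N2. With the sets of arrays as a covariate 0 of the 3 genes and 0 of the shared probe sets were called, with log2 changes of 1.67 for Iigp1 (adjusted p 0.295) and 1.54 for Gm12250 (adjusted p 0.247). The SE of Iigp1 rose from 0.44 to 0.65 here too, and this fit cannot separate the split from the group.

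**Figure D2:**
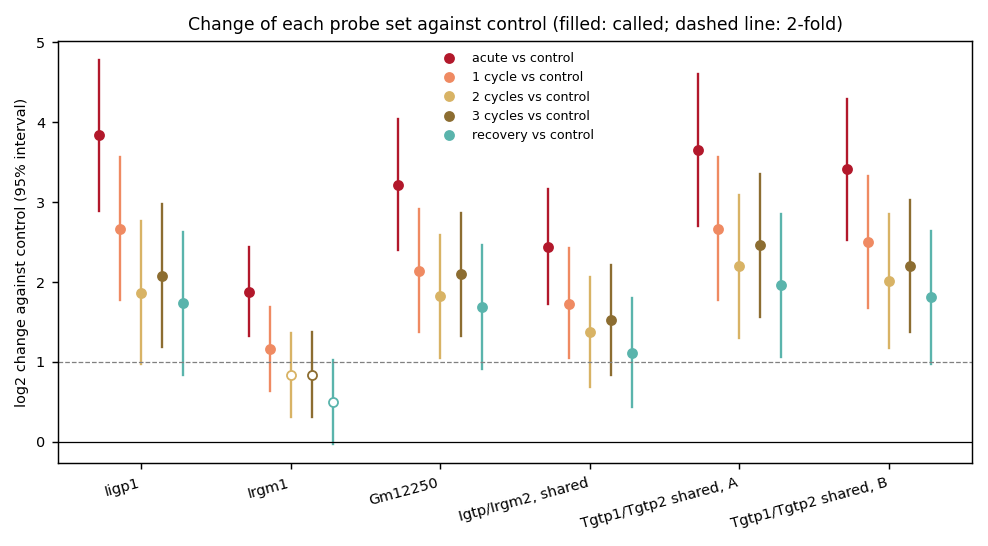
Log2 change against control (vertical axis, points) with its 95% interval (lines) for the 3 genes and the 3 shared probe sets (horizontal axis), for acute colitis, 1, 2 and 3 cycles and recovery. Filled points were called, and the open points are Irgm1 after 2 cycles, after 3 cycles and after recovery.

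The additional recovery was compared with 2 cycles, the group without it. Iigp1 averaged 6.91 ± 0.66 in recovery and 7.04 ± 0.64 in 2 cycles (SD, n = 5 each), a log2 difference of -0.13 (95% interval -1.02 to 0.77, adjusted p 0.966). Gm12250 averaged 6.78 ± 0.52 in recovery and 6.91 ± 0.58 in 2 cycles, a difference of -0.13 (95% interval -0.91 to 0.64, adjusted p 0.956). Irgm1 averaged 8.08 ± 0.40 in recovery and 8.42 ± 0.43 in 2 cycles, a difference of -0.34 (95% interval -0.87 to 0.19, adjusted p 0.758).

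By limma 0 of the 3 genes were called between recovery and 2 cycles, against 0.152% of all probe sets called higher and 3 of 35511 called lower. An unadjusted p under 0.05 was reached by 0 of the 3 genes and by 8.7% of all probe sets. The interval of Iigp1 includes a 2-fold fall, and those of Gm12250 and Irgm1 do not. The sign of the Iigp1 and Gm12250 differences turned without E2 and without N3.

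Acute colitis was then set against the mean of the 3 chronic groups, that is, the end of DSS against the end of the rest periods. The chronic groups also differ from acute colitis in age at first DSS and, after 2 and 3 cycles, in the number and concentration of exposures. The rest cannot be told apart from these. Iigp1 was 3.10-fold higher in acute colitis (log2 difference 1.63, SE 0.39, adjusted p 0.00511) and Gm12250 2.30-fold higher (1.20, SE 0.34, adjusted p 0.0171). Irgm1 was 1.92-fold higher (0.94, SE 0.23, adjusted p 0.00633), short of the 2-fold threshold. Thus 2 of the 3 genes were called, against 0.282% of all probe sets called higher.

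These differences rested in part on 1 mouse. Without acute mouse B3 the log2 difference was 1.17 for Iigp1 (adjusted p 0.058), 0.76 for Gm12250 (adjusted p 0.165) and 0.65 for Irgm1 (adjusted p 0.0714), and 0 of the 3 genes were called. Without B4, 1 gene was called, and without B2, the lowest acute mouse, all 3. Against control, by contrast, 3 of the 3 genes were called in acute colitis whichever mouse was left out, with log2 changes of at least 3.37 for Iigp1, 2.78 for Gm12250 and 1.59 for Irgm1, each reached without B3.

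Set against each chronic group by itself, acute colitis was 3.93-fold above 2 cycles in Iigp1 (adjusted p 0.00615), 2.64-fold in Gm12250 (adjusted p 0.0246) and 2.07-fold in Irgm1 (adjusted p 0.0136), so that 3 of the 3 genes were called, against 0.298% of all probe sets called higher. It was 3.38-fold above 3 cycles in Iigp1 (adjusted p 0.0128) and 2.06-fold in Irgm1 (adjusted p 0.0119), while Gm12250 at 2.17-fold had an adjusted p of 0.07, against 0.298% of all probe sets. Without B3, 1 gene was called against 2 cycles and 0 against 3 cycles. Leaving out D4 or E3 also left 1 call against 2 cycles, and leaving out F1, F3 or F5 left 1 against 3 cycles. In a fit of only the groups compared, 0 were called in either comparison. Within the high set of arrays, 0 were called in either, and within the low set 0 against 2 cycles.

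Acute colitis did not pass the threshold against 1 cycle. The difference was 2.25-fold in Iigp1 (adjusted p 0.145), 2.11-fold in Gm12250 (adjusted p 0.115) and 1.65-fold in Irgm1 (adjusted p 0.123), so that limma called 0 of the 3 genes while 0.197% of all probe sets were called higher. An unadjusted p under 0.05 was reached by 3 of the 3 genes and by 19.2% of all probe sets. Without B2, Iigp1 and Gm12250 were called. Recovery was lower than acute colitis in all 3 genes, by 2.1 on the log2 scale in Iigp1, 1.53 in Gm12250 and 1.39 in Irgm1 (adjusted p 0.00318, 0.0119 and 0.00118), and 0.369% of all probe sets were called lower. Without B3 the fall of Gm12250 had an adjusted p of 0.0707. It was 0.105 with only these groups in the fit and 0.0523 within the high set of arrays, where acute colitis has 2 mice. The groups overlapped in Iigp1 and Gm12250, as recovery mouse N2 (8.03 and 7.58) lay above acute mouse B2 (7.76 and 7.03).

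The order of the group means was acute colitis, 1 cycle, 3 cycles, 2 cycles, recovery and control in all 3 genes and in all 3 shared probe sets. Neighbours in this order were compared by the adjusted p alone, in either direction. Of the 15 neighbouring pairs of the 3 genes, 2 differed, recovery and control in Iigp1 and in Gm12250, a comparison in which 12.7% of all probe sets passed. In the other comparisons of neighbours 0 of the 3 genes passed, against 5.74% of all probe sets for acute colitis and 1 cycle, 1.77% for 3 cycles and 1 cycle, 0.00282% for 3 cycles and 2 cycles and 0.279% for recovery and 2 cycles. The chronic groups overlapped with each other and with recovery in every gene, and the log2 differences between neighbours among them lay between -0.59 and 0.28 with intervals that include 0.

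Mice of 1 group differed from each other, and they did so in step across the probe sets. B3 in acute colitis, J5 in 1 cycle, E2 in 2 cycles, G3 in 3 cycles and N2 in recovery were each the highest of their group in 6 of 6 probe sets, while in control no mouse was highest in more than 2. Relative to the group mean, G3 stood 1.36 higher in Iigp1, 0.86 in Irgm1 and 1.05 in Gm12250. N2 stood 1.11 higher in Iigp1, 0.65 in Irgm1 and 0.81 in Gm12250, and without N2 the recovery mice lay between 6.40 and 6.88 in Iigp1. After the group means were taken away, the correlation over the 29 arrays was 0.942 to 0.950 between the 3 genes and 0.917 to 0.992 between all 6 probe sets, a description over mice that share their group and a set of arrays normalized together.

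**Figure D3:**
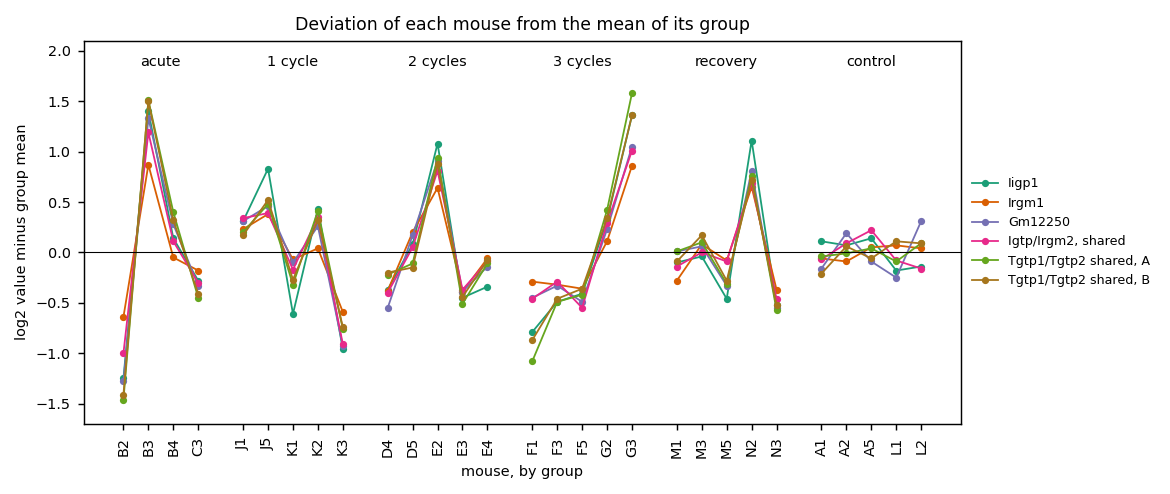
Log2 value of each mouse minus the mean of its group (vertical axis) for the 3 genes and the 3 shared probe sets (colours), with mice along the horizontal axis by group; lines only join the points of 1 probe set. The probe sets deviate together within each DSS group and lie near 0 in control.

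The genes whose values were most like the mean of Iigp1, Irgm1 and Gm12250 over the 29 arrays, by Pearson correlation among 19935 other genes, were Gm4951 (0.979), Cxcl9 (0.970), Ido1 (0.966), Psme2 (0.961), Psme1 (0.959), Psmb10 (0.952), Fcgr4 (0.950) and Zbp1 (0.946). Gm4951 is itself a member of the family, named for its gene model only. Cxcl9 is a chemokine that draws T cells, Ido1 degrades tryptophan, Psme1 and Psme2 form the activator of the immunoproteasome and Psmb10 is 1 of its catalytic subunits. Fcgr4 is an activating Fc receptor of myeloid cells, and Zbp1 senses nucleic acids in Z form. The arrays share their groups, and over the deviations from the group means the 8 genes ranged from 0.841 (Psmb10) to 0.953 (Gm4951).

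Cxcl9 moved over a wider range than the GTPases. It read 8.95, 12.43, 11.24 and 10.60 in acute mice B2, B3, B4 and C3, against 5.37, 6.02, 5.59, 5.44 and 5.79 in control mice A1, A2, A5, L1 and L2. Its log2 changes were 5.16 in acute colitis, 4.07 after 1 cycle, 3.03 after 2 cycles, 3.39 after 3 cycles and 2.88 after recovery, all called. The mice that led their groups in the GTPases also led them in Cxcl9, with 10.24 in J5, 9.89 in E2, 10.58 in G3 and 9.50 in N2.

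Ifng, which encodes interferon gamma itself, was above every control mouse in all 4 acute mice, and far above in B3. It read 5.35, 9.15, 6.52 and 5.58 in acute mice B2, B3, B4 and C3, against 4.84, 5.14, 5.14, 4.96 and 5.02 in control mice A1, A2, A5, L1 and L2. The log2 change of 1.63 (SE 0.40, adjusted p 0.00388) was called, but without B3 it was 0.80 (adjusted p 0.000664), under the 2-fold threshold, and in a fit of acute and control mice alone the adjusted p was 0.121. In the chronic and recovery groups Ifng lay between 5.0 and 5.53, where the log2 changes against control were 0.16 to 0.40 and none was called. All 1 cycle mice, at 5.33 to 5.53, lay above every control mouse, as in 4.89% of all probe sets. These values lie under the median of all values (6.09), and how far they stand above background was not tested. Over the 29 arrays Ifng had a Pearson correlation of 0.715 and a Spearman correlation of 0.854 with the mean of the 3 genes. The order of the 4 acute mice in Ifng was that of Iigp1, with B3 highest and B2 lowest in both (5.35 in Ifng and 7.76 in Iigp1). The part of Ifng in the GTPase values was not tested.

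**Figure D4:**
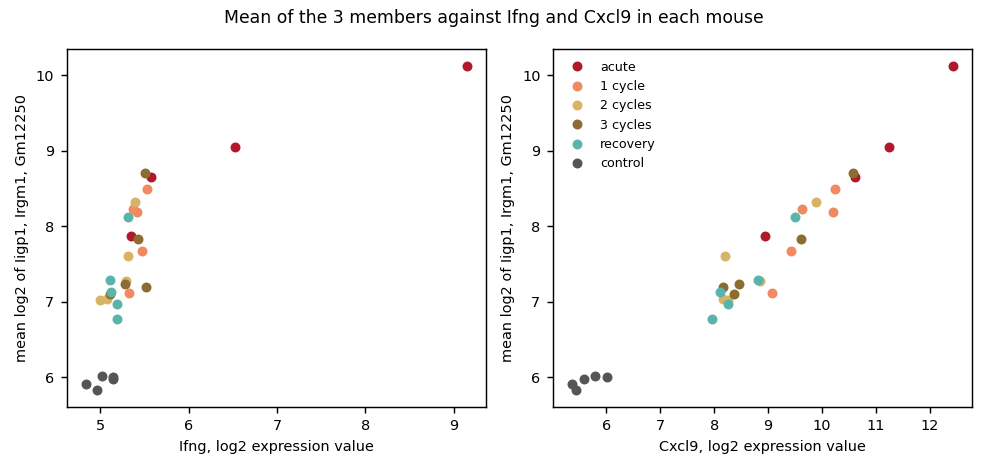
Mean log2 value of Iigp1, Irgm1 and Gm12250 (vertical axis) against the log2 value of Ifng (left) and Cxcl9 (right, horizontal axes) in each of the 29 mice, coloured by group. Cxcl9 and the GTPases spread over their ranges together, whereas Ifng exceeds 6 in only 2 acute mice, B3 and B4.

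The other genes of the interferon pathway were counted in lists. Of 4 other measured family members, Gm4951 and Gm4841 were called in acute colitis, with log2 changes of 2.69 and 1.31, while Irgq (0.16) and Irgc1 (-0.04), which belong to the quasi and the noninducible branches, were not, and without B3 the count was 1. Gm4951 was also called after 1 cycle (1.77), 3 cycles (1.68), 2 cycles (1.27, adjusted p 0.0482) and recovery (1.21, adjusted p 0.0362). In 2 cycles it was no longer called without any 1 of the 5 mice of that group, and in recovery without M1, M3, N2 or any 1 control mouse. The guanylate-binding proteins, larger interferon-inducible GTPases that join in the attack on vacuoles, rose in 8 of 8 in acute colitis, from Gbp2b (1.29) to Gbp5 (3.13). They were called in 3 of 8 after 1 cycle, 1 of 8 after 2 cycles, 6 of 8 after 3 cycles and 0 of 8 after recovery, where their median log2 change was 0.80, against 0.0 over all probe sets. These later counts shifted with single mice, to 1 after 1 cycle without J1, J5 or A1, to 0 after 2 cycles without D4, E2, E4, A1, A2, A5 or L1, and to 2 after 3 cycles without G3, A2 or A5.

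Genes upstream of the GTPases were counted beside all probe sets, of which 1.38% were called higher in acute colitis. After 1, 2 and 3 cycles and recovery this share was 0.87%, 0.907%, 1.02% and 1.08%. Of 11 interferons and interferon-inducing cytokines, only Ifng was called in acute colitis and none in the other DSS groups. Of 6 receptor chains 0 were called in any DSS group, with Ifngr1, the ligand-binding chain for interferon gamma, at -0.20 in acute colitis and Ifnar2, a chain of the type I receptor, at 0.84 (adjusted p 0.00245). Of 14 JAK-STAT components and interferon regulatory factors, Batf2 (1.32), Stat2 (1.11) and Irf8 (1.07) rose in acute colitis, and Irf1, an activator of many interferon targets, stood at 1.00 (adjusted p 0.000182), at the 2-fold threshold and not called. Without B3 the count was 1 of 14, and without B2 it was 5 of 14 and that of the receptors 1 of 6. The median log2 change of these 14 genes was 0.54 in acute colitis, against 0.04 over all probe sets. After 1, 2 and 3 cycles and recovery it was 0.37, 0.47, 0.58 and 0.43, against -0.01 to 0.02 over all probe sets. In 1, 2 and 3 cycles and recovery the called gene was Ciita, the master regulator of MHC class II, at 1.21, 1.14, 1.24 and 1.04, which is named because of its values. In recovery it was not called without M1, M3, N2 or L1.

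Among the inhibitors of the pathway, Socs3 (2.17), Usp18 (1.60) and Socs1 (1.21), which dampen cytokine and interferon signals, were called of 8 in acute colitis. Usp18 alone was called after 1, 2 and 3 cycles (1.31, 1.09 and 1.13), and 0 of 8 were called after recovery, with Usp18 at 1.0. Usp18 was not called after 2 cycles without E2 or after 3 cycles without G3.

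Other interferon gamma targets were called in 15 of 20 in acute colitis (median log2 change 1.43, against 0.04 over all probe sets), led by Ido1 (5.24), Cxcl9 (5.16), Nos2 (4.10) and Cxcl10 (3.89). After 1, 2 and 3 cycles and recovery, 8, 7, 9 and 7 of the 20 were called. Type I interferon targets were called in 8 of 20 in acute colitis (median 0.85), led by Ifit1 (1.74), Oasl2 (1.69), Ifit2 (1.58) and Ifitm3 (1.48), and in 6, 5, 5 and 1 of 20 after 1, 2 and 3 cycles and recovery. With the 2 sets of arrays as a covariate, 0 genes of either list were called after 3 cycles or recovery. The 1 call in recovery was Oasl2, and it was lost without N2, A1 or L1. No difference between lists was tested.

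The machinery with which these GTPases work held no call in short lists. In acute colitis 489 of all 35511 probe sets were called higher and 496 lower, so 0 calls do not set such lists apart. Of 12 genes of the ubiquitin-like conjugation machinery of autophagy, 0 were called in any comparison with control, with a median log2 change of -0.20 in acute colitis. Gabarapl1, an Atg8 protein, was the lowest at -0.73 (adjusted p 0.000313). Of 7 ubiquitin ligases and adaptors recruited to coated vacuoles 0 were called, with a median of -0.19 and the adaptor Calcoco1 lowest at -0.71 (adjusted p 1.54e-05).

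**Figure D5:**
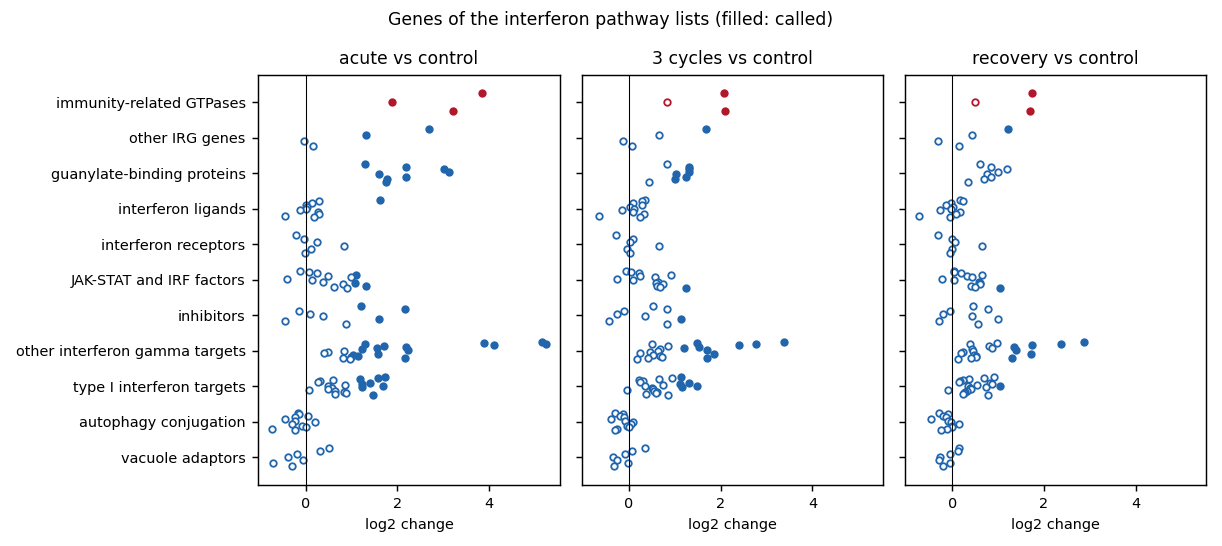
Log2 change (horizontal axis) of each measured gene (points) in the 3 immunity-related GTPases and 10 lists (vertical axis) in acute colitis, after 3 cycles and after recovery, each against control; filled points were called. The GTPases, guanylate-binding proteins and interferon gamma targets lie to the right in acute colitis, while the lists of receptors, autophagy genes and vacuole adaptors hold no filled point.

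Markers of infiltrating cells moved in the same groups. In acute colitis 8 of 11 macrophage and monocyte markers and 7 of 8 neutrophil markers were called higher, against 1.38% of all probe sets. Of 8 markers of NK and cytotoxic cells 2 were called higher, and of 8 T cell markers 0. Without B3 the macrophage count was 4 and the NK count 0. The mean log2 value of the macrophage list was 7.11 to 8.72 in acute colitis, with B2 lowest and B3 highest, 7.35 to 8.20 in the chronic groups, 7.47 to 7.99 in recovery and 6.71 to 7.11 in control. That of the neutrophil list was 6.11 (B2) to 9.15 (B3) in acute colitis, 5.69 to 7.12 in the chronic groups, with G3 highest, 5.54 to 6.59 in recovery and 5.49 to 5.69 in control. The NK and cytotoxic list lay at 5.07 to 5.94 in acute colitis, 5.02 to 5.47 in the chronic groups, 4.88 to 5.33 in recovery and 4.67 to 4.84 in control. The T cell list lay at 5.81 to 6.29 in acute colitis, 5.98 to 6.66 in the chronic groups, 5.98 to 6.53 in recovery and 5.39 to 5.66 in control. The mice that led in the GTPases led in part in these lists. B3 and G3 were the highest of their groups in the macrophage, neutrophil and NK lists, and E2 in the macrophage, NK and T cell lists. N2 was highest in the T cell list, and M3 in the macrophage, neutrophil and NK lists of recovery. In 1 cycle K1, not J5, was highest in the lists of macrophages, neutrophils, NK cells, T cells and B cells. The part of these cells in the GTPase values was not tested.

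In the chronic groups B cell and T cell markers were higher too. Of 7 B cell markers 5, 5 and 4 were called after 1, 2 and 3 cycles and 0 in acute colitis, where the GTPases were highest. Of 8 T cell markers 1, 4 and 3 were called after 1, 2 and 3 cycles and 3 after recovery. Of all probe sets, 0.87%, 0.907% and 1.02% were called higher after 1, 2 and 3 cycles, 1.08% after recovery and 1.38% in acute colitis. Without K3 the T cell count after 1 cycle was 4, and without F3, G2, A1 or L1 the B cell count after 3 cycles was 2. In acute colitis, where 496 of all 35511 probe sets were called lower, smooth muscle markers fell in 6 of 7, with a median log2 change of -1.76. Of 9 markers of colonic epithelium 3 fell, or 1 of 9 without B4. The part of these tissues in the GTPase values was not tested. Squamous epithelium markers such as Krt5 were high in 4 of 5 recovery mice and in G3, the highest 3 cycles mouse in Iigp1 (8.62). In the remaining recovery mouse, M5, Krt5 read 5.52 and Iigp1 6.45, while the other recovery mice read 6.40 to 8.03 in Iigp1. The part of squamous epithelium in the GTPase values was not tested. Over the 29 arrays, the mean of the 3 genes had a correlation of 0.892 with the mean of the NK and cytotoxic list, 0.824 with macrophages, 0.809 with neutrophils, 0.574 with T cells and 0.277 with B cells. With smooth muscle it was -0.723, with colonic epithelium -0.472, with simple epithelium 0.226, with skeletal muscle -0.163, with endothelium -0.0846 and with squamous epithelium 0.0321. Over deviations from the group means it was 0.732 for NK and cytotoxic cells, 0.734 for macrophages, 0.672 for neutrophils, 0.601 for T cells, 0.364 for B cells, 0.227 for squamous epithelium and -0.395 for smooth muscle. These are descriptions over mice that share their groups.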

How the data were processed

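Colon RNA of 29 mice was hybridized to Affymetrix arrays, 1 per mouse, and the table holds log2 values that the authors made with RMA in R 2.12.2 before they were deposited, so that background correction, quantile normalization and summary over probes were already done. Arrays were assigned to the 6 groups by their labels. Of 35511 probe sets, 21789 carry 1 gene symbol, 1621 several and 12101 none. A gene was read from its probe set of that symbol alone, the one of highest mean where there were several, which left 3 of the 6 listed genes. All groups were fitted in 1 model with limma 3.58.1 in R 4.3.3 without covariates, with Benjamini-Hochberg adjustment. The number of arrays limits the precision. On simulated data with the acute against control design, 95 of 100 changes of 2.5-fold and all 100 of 4-fold were recovered. With the recovery against control design the numbers were 93 and 99 of 100. The simulated spread was the same in every group, unlike that of Iigp1 (SD 1.1 in acute colitis, 0.15 in control). These numbers therefore do not give the power for the 3 genes. Likeness was measured against the mean of the 3 genes found. Named from each list were up to 4 genes of largest acute change, or any in lists under 9 measured genes. The members and lists were chosen with earlier results of these data known. The comparisons with control share the same 5 control mice. The alternatives tried were another set of samples in the fit, weighted arrays, the letter in the sample label as a random block, a robust and trended variance prior, filters, renormalization, the sets of arrays, other call rules and each array left out.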

Additional observations from a re-analysis of the deposited data

Results flagged for a closer look

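The 2 probe sets shared by Tgtp1 and Tgtp2 stood out in 1 mouse of 2 cycles, E2, where probe set A read 9.66 and probe set B 9.28. The gap from E2 to the next mouse was 0.725 of the whole range of the group in probe set A and 0.728 in probe set B, above the limit of Dixon's test for 5 samples. In 36 tests of a probe set within a group, chance gives about 1 in 20. The 2 probe sets are annotated with the same genes, and E2 was also highest of its group in the other 4 probe sets, without passing this limit there.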

How the results depend on the processing

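Under 42 other settings, 29 of which left out 1 array, 3 of the 3 genes were called in acute colitis against control and 0 between recovery and 2 cycles in each setting that could be fitted. After 1 cycle 3 genes were called in each except limma's test for a fold above 1.5, with 1. That test called 0 after 2 cycles, after 3 cycles, after recovery and in acute colitis against the chronic mean, and found 0 of the 15 pairs of neighbouring groups different, as did the fit with the 2 sets of arrays as a covariate. With that covariate 1 gene was called after 2 cycles and 0 after 3 cycles and recovery, and within the low set 0 after 2 cycles. Against the chronic mean, 1 gene was called with only the compared groups in the fit and 1 with array weights, and between 0 (without B3) and 3 (without B2) when 1 array was left out. Then 2 to 5 of the 15 pairs differed, 5 without B2. Between recovery and 2 cycles, the log2 difference lay between -0.40 (without N2) and 0.14 (without E2) for Iigp1, between -0.33 and 0.10 for Gm12250 and between -0.38 and 0.02 for Tgtp1 and Tgtp2 probe set B, so that the sign of each turned. Of the 8 genes most like the GTPases, 5 stayed among the first 8 by Spearman correlation and 4 over deviations from group means.

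For the 3 genes over all comparisons, the settings other than leaving out arrays left a gene on its side of the threshold, called or not, in 341 fits, with 5 calls gained and 44 lost. Leaving out arrays did so in 930, with 6 gained, 17 lost and 4 differences turned in sign. The causes were not tested. All probe sets called higher in acute colitis against 1 cycle numbered 70, or 5 with only these groups in the fit; for recovery against control they numbered 382, or 71 with the sets of arrays as a covariate. Each gene has 1 probe set, so a median over several was not run. No paired analysis was possible because the labels give no replicate number shared between groups. The control values of Iigp1 and Gm12250 lie under the median of all values (6.09), and how far they stand above background was not tested.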
